A study of Mus musculus with 6 samples.

Results

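The genes described here are 32 genes of cholesterol and fatty acid synthesis, together with the genes that sense, move and export sterols, in B cells from mouse spleen. They were matched by symbol from a list that was drawn up with earlier results of these data known, by a rule that sets no threshold on a value, and all 32 were found among the 35275 genes of the deposited table of expression values. The mice were wild type (WT) or carried an altered CD40 ligand, CD40LΔ5, were of strain C57BL/6 and 6 to 8 weeks old, and all of them had received sheep red blood cells (SRBC), an antigen that drives germinal centre responses. B cells were taken on day 8 with a magnetic pan-B cell kit, and 3 libraries per group were sequenced. CD40 ligand is made mainly by T cells, so in these B cells the genotype is that of the whole animal. Nothing in the labels says whether each library stands for its own mouse, and p-values therefore measure the spread between libraries, which may be technical.

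The 2 deposited sources do not place the libraries in the same groups. Besides the sample labels there is the authors' deposited table of group means, whose MUT column is the mean of the libraries labelled WT replicates 1 and 2 and CD40LΔ5 replicate 2, and whose WT column is that of WT replicate 3 and CD40LΔ5 replicates 1 and 3 (largest difference 3.33e-08 FPKM). FPKM is the number of fragments per kilobase of gene and per unit of sequencing depth on genes. Each comparison is given for both groupings, library names follow the labels, values in each library are listed in the order of replicates 1, 2 and 3 of each label, and no direction below can be tied to the genotype beyond what one or the other source says. The comparisons ask whether lipid synthesis genes differ between B cells of the 2 genotypes during the response.

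Cells make cholesterol from acetyl-CoA through mevalonate, squalene and lanosterol, and the same acetyl-CoA feeds the synthesis of fatty acids. Both pathways are switched on by the SREBP transcription factors (Srebf1, Srebf2), which Scap escorts from the endoplasmic reticulum when sterols are low and Insig proteins hold back when sterols are high. Excess sterol acts through the LXR receptors, which switch on the exporters Abca1 and Abcg1. Activated B cells need both lipids for new membrane, and plasma cells for their enlarged endoplasmic reticulum.

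The libraries held 24320080 to 27866611 reads on genes. Markers of B cells were abundant in every one, with 8 of 8 listed markers found and a summed level of 4554 to 5331 FPKM, led by Cd79a and Cd79b. Markers of other cells were present at lower levels: 10 monocyte and macrophage markers summed to 128 to 366 FPKM and 8 T cell markers to 39.3 to 51.9 FPKM, while 8 erythroid markers reached 324 to 1217 FPKM. Sums of 8 markers each were 44.6 to 582 FPKM for neutrophils, 36.7 to 87.9 FPKM for natural killer cells, 46.8 to 82.7 FPKM for dendritic cells, 69.1 to 86.1 FPKM for stroma and adipocytes and 39.1 to 163 FPKM for germinal centre B cells. The adipocyte marker Plin1 was at 0 in every library. Only 1 of the 8 stroma and adipocyte markers and 4 of the 8 dendritic cell markers reached a mean of 1 FPKM, so these sums rest on few genes.

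Promoters were looked up for the members in RefSeq (GRCm38.p6), as windows from 250 bases before to 50 bases after the annotated start. A window was listed for 25 of the 32 members, 33 windows in all. Those of Hmgcs1, Cyp51 and Sc5d, sterol enzymes that were lower in all 3 libraries averaged as MUT than in the other 3, and of Srebf2, the most abundant regulator, are printed 5′ to 3′ on the gene's strand. Capitals mark 3 motifs on either strand: TCACNCCA, the core of the sterol regulatory element bound by SREBP, CCAAT, the box bound by NF-Y, and CACGTG, an E-box. The windows lie at chr13:119690101-119690400 (plus strand, Hmgcs1), chr5:4104648-4104947 (minus, Cyp51), chr9:42264251-42264550 (minus, Sc5d) and chr15:82147019-82147318 (plus, Srebf2).
Hmgcs1: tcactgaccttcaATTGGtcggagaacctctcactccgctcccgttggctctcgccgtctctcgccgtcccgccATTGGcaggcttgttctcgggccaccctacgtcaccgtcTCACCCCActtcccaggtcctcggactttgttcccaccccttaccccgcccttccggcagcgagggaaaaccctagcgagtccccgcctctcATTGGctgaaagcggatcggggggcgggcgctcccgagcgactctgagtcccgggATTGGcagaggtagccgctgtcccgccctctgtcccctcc
Cyp51: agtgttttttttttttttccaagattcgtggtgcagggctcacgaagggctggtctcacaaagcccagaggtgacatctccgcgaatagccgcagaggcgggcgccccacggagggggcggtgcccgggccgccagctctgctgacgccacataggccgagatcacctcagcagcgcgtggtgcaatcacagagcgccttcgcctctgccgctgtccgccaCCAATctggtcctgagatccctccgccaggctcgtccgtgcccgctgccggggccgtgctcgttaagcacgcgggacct
Sc5d: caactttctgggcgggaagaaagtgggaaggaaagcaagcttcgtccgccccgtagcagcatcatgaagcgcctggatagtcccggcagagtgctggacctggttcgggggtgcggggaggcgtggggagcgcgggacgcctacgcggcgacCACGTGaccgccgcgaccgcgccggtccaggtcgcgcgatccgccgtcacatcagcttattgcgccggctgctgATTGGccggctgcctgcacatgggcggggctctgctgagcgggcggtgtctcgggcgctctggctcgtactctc
Srebf2: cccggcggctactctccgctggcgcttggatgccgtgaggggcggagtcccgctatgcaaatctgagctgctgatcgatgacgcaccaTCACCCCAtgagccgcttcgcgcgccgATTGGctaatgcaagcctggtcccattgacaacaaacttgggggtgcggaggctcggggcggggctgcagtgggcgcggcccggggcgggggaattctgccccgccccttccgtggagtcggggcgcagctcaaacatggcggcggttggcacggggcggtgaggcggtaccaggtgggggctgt

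The sterol regulatory core stood in 3 of the 33 windows (9.09%), those of Hmgcs1, Msmo1 and Srebf2, against 4.36% of all 32851 windows. In Hmgcs1 the match TCACCCCA began 137 bases before the RefSeq start, and in Srebf2 the same letters began 162 bases before it. CCAAT stood in 21 of the 33 windows (63.6%, against 37.4% of all windows), and CACGTG in 7 (21.2%, against 7.15%). No motif of this list overlapped another in the printed windows. A match describes letters only, and says nothing of binding in these cells.

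The members differed widely in level and little between libraries. Per kilobase of gene, Scd1, the stearoyl-CoA desaturase that makes monounsaturated fatty acids, stood highest with a mean of 227 FPKM, and only 2.68% of the 11252 genes tested were higher. Srebf2 followed at 86.6 FPKM and Acly, which makes cytosolic acetyl-CoA from citrate, at 66.0 FPKM. A further 14 members lay between 10 and 50 FPKM and 14 between 1 and 10 FPKM. Elovl6 alone lay under the level of 1 FPKM needed for testing. In 27 of the 32 members the highest library held less than 1.5 times the lowest, and the largest such ratio was 1.82, for Tm7sf2. The median coefficient of variation over the 6 libraries was 9.86% for the 31 tested members, against 11.4% for all genes tested and 10.2% for genes within the same range of levels. Counting error alone gives 8.18% for Tm7sf2 and 0.589% for Scd1. For Lss the spread of 4.43% was below its counting error of 4.83%.

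**Figure D1:**
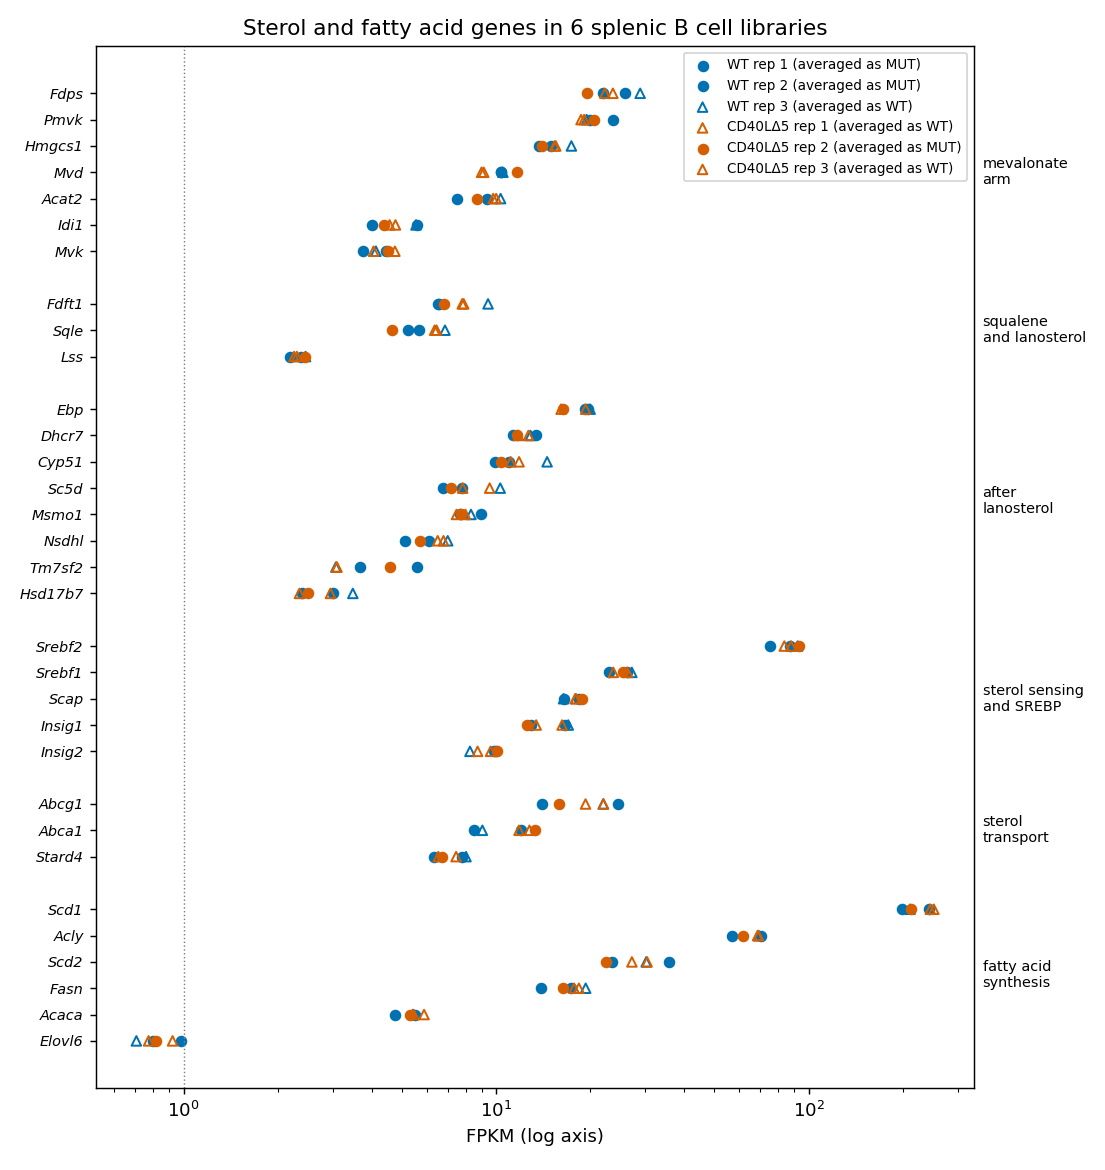
FPKM (log axis) of the 32 genes in the 6 libraries, ordered by role and level; blue marks libraries labelled WT and orange those labelled CD40LΔ5, filled circles those averaged as MUT and open triangles those averaged as WT. The points of a gene lie close together, from a ratio of 1.12 for Lss to 1.82 for Tm7sf2, while the genes span from under 1 FPKM (dotted line) to 252 FPKM.

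By the labels, 0 of 31 tested members passed limma at an adjusted p of 0.05, as did 0% of all 11252 genes tested, with 0.999993 as the lowest adjusted p. limma gave 1 member with an unadjusted p under 0.05, Abca1, against 1.24% of all genes. It was higher in CD40LΔ5, as 0.915% of all genes were at that p, while 0 members were lower, against 0.320%. limma voom on the reads recovered from the FPKM values called 0 members too. Of the 31 members 19 had lower and 12 higher values in the libraries labelled CD40LΔ5, with a median log2 difference of -0.02, and among all genes 44.5% were lower with a median of 0.01. No member had groups that do not overlap, which 4.29% of all genes had, 2.98% with CD40LΔ5 above and 1.32% with it below. The 95% interval of the difference lay within 1.5-fold for 29 of 31 members on the log2(FPKM + 1) scale, where changes of low genes come out too small, and smaller differences were not resolved.

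By the table, 0 of 31 members passed limma at an adjusted p of 0.05, against 0.0267% of all genes, with 0.349 as the lowest adjusted p of a member. An unadjusted p under 0.05 was given for 6 members, against 13.0% of all genes. These were 5 with lower values in the libraries averaged as MUT (3.61% of all genes) and 1 with higher values (9.39%). The 5 were Sqle, Fdft1, Sc5d, Nsdhl and Acat2, and the 1 was Tm7sf2, all enzymes of sterol synthesis. Of the 31 members 25 had lower values in the MUT set, with a median log2 difference of -0.09, while 38.0% of all genes were lower and their median was 0.05. Groups did not overlap for 8 members with MUT below (4.79% of all genes) and 3 with MUT above (12.1%). By role, the median log2 difference by the table was -0.08 for 7 genes of the mevalonate arm, -0.29 for 3 genes of the squalene and lanosterol steps, -0.07 for 8 genes after lanosterol and -0.13 for 5 of fatty acid synthesis, against -0.07, -0.00, -0.08 and 0.06 by the labels. Markers of several cell types differed between the sets too. In the MUT set 8 of 8 proliferation markers had lower values (median log2 difference -0.66, sums of 81.2 to 144 FPKM against 146 to 189 FPKM), as did 7 of 7 tested germinal centre markers (-1.23), 8 of 8 plasma cell markers (-0.84) and 8 of 8 neutrophil markers (-1.55). Higher values there were found for 10 of 10 monocyte and macrophage markers (0.69), 8 of 8 erythroid (0.63), 8 of 8 natural killer cell (0.56), 7 of 7 tested T cell (0.18) and 8 of 8 B cell markers (0.12). By the labels, CD40LΔ5 was lower in 8 of 8 plasma cell (-0.37) and 10 of 10 monocyte and macrophage markers (-0.28). So it was in 8 of 8 erythroid (-0.27), 6 of 7 T cell (-0.07) and 6 of 8 natural killer cell markers (-0.07). Proliferation markers were lower in 5 of 8 (-0.05). Higher by the labels were 6 of 7 germinal centre (0.14), 7 of 8 neutrophil (0.12) and 7 of 8 B cell markers (0.03). None of these had an unadjusted limma p under 0.05 by the labels. None of the markers found for these lists, tested or not, was at 0 in every library. The part of these cells in the differences of the members was not tested. Both comparisons use the same 6 libraries, so they are not independent.

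**Figure D2:**
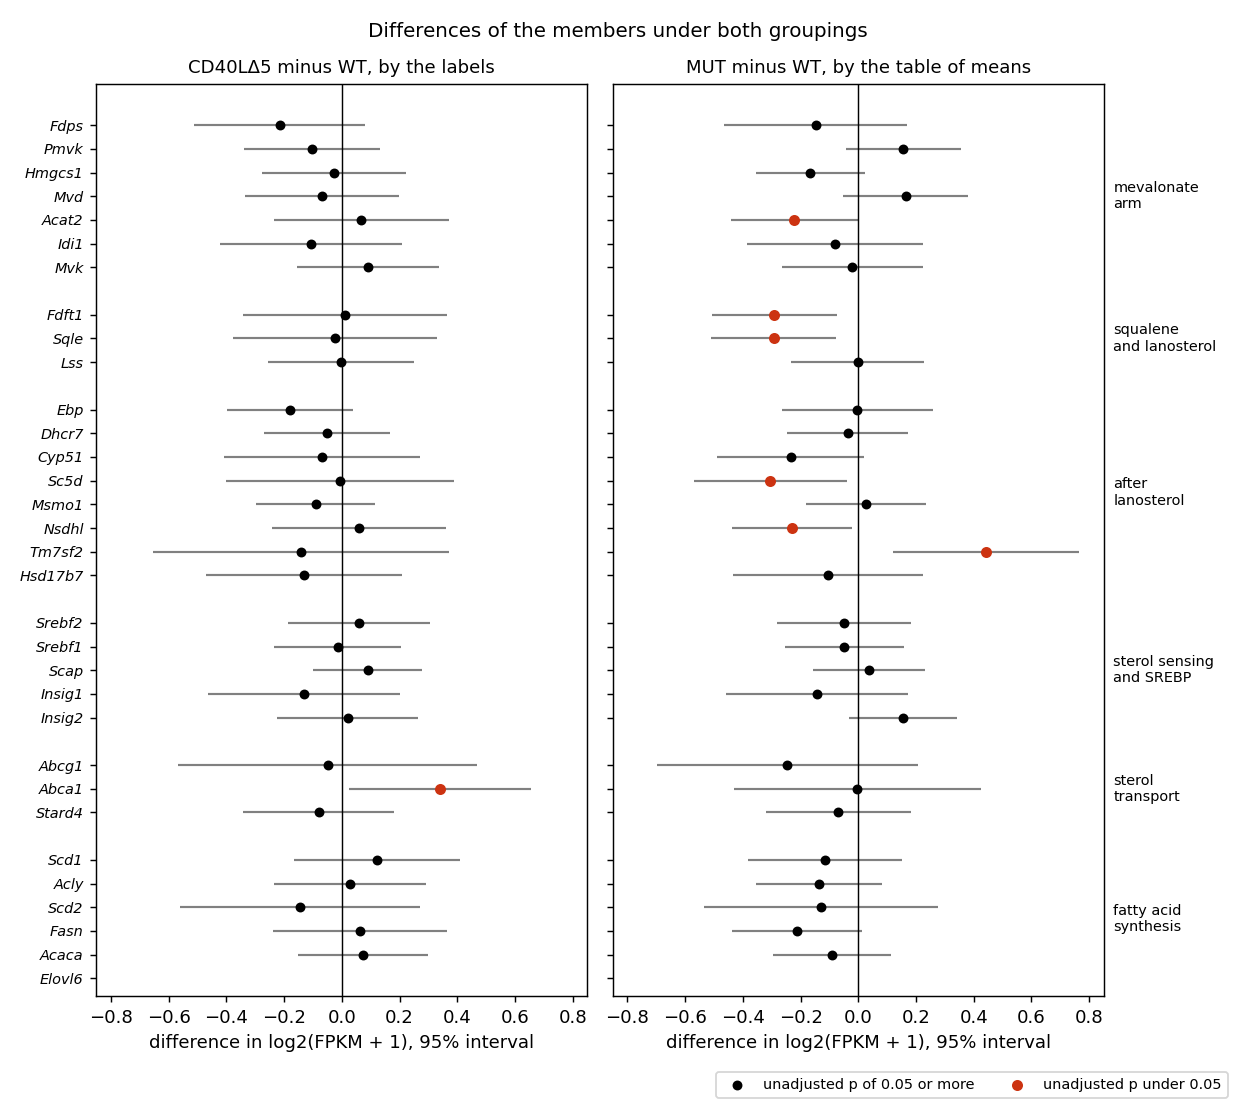
Difference in log2(FPKM + 1) of each member with its 95% interval, CD40LΔ5 minus WT by the labels (left) and MUT minus WT by the table of means (right); red points have an unadjusted limma p under 0.05, and Elovl6, under 1 FPKM, was not tested. All but Abca1 have an interval across 0 on the left, and on the right Acat2, Fdft1, Sqle, Sc5d and Nsdhl lie below 0 and Tm7sf2 above it.

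Leaving out single libraries changed both the p-values and the differences of these 5 genes. Without WT replicate 3, limma gave 0 members lower at an unadjusted p under 0.05 by the table (1.33% of all genes), while the log2 differences of the 5 were -0.26 to -0.20. Without CD40LΔ5 replicate 2 it gave 1 (1.73% of all genes), with differences of -0.31 to -0.23, and without CD40LΔ5 replicate 3 it gave 2 (3.81%). The count was 6 without WT replicate 1 (3.08% of all genes), 5 without WT replicate 2 (5.84%) and 4 without CD40LΔ5 replicate 1 (3.30%). Without WT replicate 1 the differences of the 5 genes ran from -0.30 (Sqle) to -0.17 (Nsdhl) and -0.14 (Acat2). Leaving out a library cannot make separate groups overlap, so counts of members without overlap could only stay or rise, and they are no check. The count of members with MUT wholly below was 9 without WT replicate 3 (6.35% of all genes), 8 without CD40LΔ5 replicate 2 (7.22%) and 9 without CD40LΔ5 replicate 3 (12.0%). It rose to 13 without WT replicate 1 (10.97% of all genes). By the labels, leaving out WT replicate 1 gave 6 members with CD40LΔ5 below and 3 above, against 3.70% and 10.4% of all genes. For the same grouping, limma gave 0 members higher at an unadjusted p under 0.05 without WT replicate 2 or 3 (0.659% and 0.477% of all genes). It also gave 0 without CD40LΔ5 replicate 1 or 2 (0.666% and 0.376%). Abca1 thus had no such p in these runs, with log2 differences of 0.25 to 0.33.

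In the mevalonate arm, which carries acetyl-CoA to farnesyl diphosphate, Acat2 makes acetoacetyl-CoA at the first step. Acat2 read 7.49, 9.36 and 10.3 FPKM under the WT label and 10.01, 8.66 and 9.79 FPKM under CD40LΔ5. WT replicate 1 was lowest, the groups by the labels overlapped, and all 3 libraries averaged as MUT lay below the others. The log2 difference was 0.07 ± 0.13 SE by the labels and -0.22 ± 0.09 SE by the table (limma unadjusted p = 0.0485, adjusted p = 0.380). Of the 50-base runs in its transcripts, 39.1% also occur in other genes, led by Acat3. Acat3 itself was listed at 0.0184 to 0.191 FPKM.

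Hmgcs1 makes HMG-CoA, an intermediate on the way to mevalonate. It read 14.9, 13.7 and 17.4 FPKM under the WT label and 15.5, 14.05 and 15.4 FPKM under CD40LΔ5. WT replicate 3 was highest, and by the table its groups did not overlap either (14.2 ± 0.624 against 16.1 ± 1.13 FPKM, SD, n = 3). The log2 difference of Hmgcs1 by the table was -0.17 ± 0.08 SE, with a limma unadjusted p of 0.0754. Exons of the gene model Gm48342 on the opposite strand cover 12.1% of the exonic bases of Hmgcs1, and their part in its values was not tested.

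Fdps, which makes farnesyl diphosphate, measured 22.0, 25.8 and 28.9 FPKM under the WT label and 22.3, 19.5 and 23.7 FPKM under CD40LΔ5. Its range was set by WT replicate 3 at the top and CD40LΔ5 replicate 2 at the bottom, and both groupings overlapped (log2 difference -0.22 ± 0.12 SE by the labels, -0.15 ± 0.13 SE by the table). Pmvk, which phosphorylates phosphomevalonate, measured 20.04, 23.7 and 19.5 FPKM under the WT label and 18.7, 20.6 and 19.1 FPKM under CD40LΔ5. It went the other way by the table, with all 3 libraries averaged as MUT above the rest (log2 difference 0.16 ± 0.08 SE, limma unadjusted p = 0.104). Mvd and Mvk, which act beside Pmvk, and Idi1, the isomerase, ranged over 8.99 to 11.7, 3.75 to 4.75 and 3.998 to 5.60 FPKM and overlapped by both groupings. In Fdps, 26.7% of the exonic bases lie in exons of a further annotated gene on the same strand. Of the 50-base runs in Idi1 transcripts, 25.3% also occur in other genes, led by the gene model Gm13502.

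Squalene synthase and squalene epoxidase commit the pathway to sterols. Fdft1, the synthase (chromosome 14, 63145153 to 63177793, minus strand), read 6.57, 6.53 and 9.43 FPKM under the WT label and 7.80, 6.80 and 7.88 FPKM under CD40LΔ5. WT replicate 3 stood well above the rest, and the 3 libraries averaged as MUT were nearly equal and lowest. By the table Fdft1 measured 6.63 ± 0.146 against 8.37 ± 0.919 FPKM (SD, n = 3) and by the labels 7.49 ± 0.601 against 7.51 ± 1.66 FPKM. The log2 difference by the table was -0.29 ± 0.09 SE (limma adjusted p = 0.352). Exons of the protease gene Ctsb on the opposite strand cover 18.3% of its exonic bases, and the kit does not mark strand. Ctsb measured 56.3 to 85.5 FPKM, with its highest value in WT replicate 1 and a log2 difference of 0.05 ± 0.17 SE by the table. The part of Ctsb reads in the Fdft1 values was not tested.

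Sqle, the epoxidase (chromosome 15, 59315077 to 59331192, plus strand), measured 5.23, 5.66 and 6.86 FPKM under the WT label and 6.45, 4.65 and 6.36 FPKM under CD40LΔ5. CD40LΔ5 replicate 2 was lowest and WT replicate 3 highest, with no overlap by the table (5.18 ± 0.507 against 6.56 ± 0.268 FPKM, SD, n = 3). The log2 difference by the table was -0.29 ± 0.09 SE, with a limma adjusted p of 0.350, and by the labels it was -0.02 ± 0.15 SE. Lss, which closes squalene epoxide to lanosterol, lay between 2.20 and 2.46 FPKM, with a log2 difference of -0.00 in both comparisons.

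After lanosterol, 8 enzymes trim and rearrange the ring. Sc5d, the lathosterol desaturase (chromosome 9, 42254177 to 42264300, minus strand), read 6.76, 7.79 and 10.3 FPKM under the WT label and 7.82, 7.18 and 9.54 FPKM under CD40LΔ5. WT replicate 3 and CD40LΔ5 replicate 3 were high, and the groups by the table did not overlap, though CD40LΔ5 replicate 1 lay just above WT replicate 2. By the table it had the lowest log2 difference of all members, -0.31 ± 0.11 SE (limma adjusted p = 0.356).

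Nsdhl, a decarboxylating sterol dehydrogenase, measured 5.09, 6.11 and 7.005 FPKM under the WT label and 6.79, 5.70 and 6.51 FPKM under CD40LΔ5. All 3 libraries averaged as MUT were lower than the rest (log2 difference -0.23 ± 0.09 SE, limma adjusted p = 0.361). Cyp51, the lanosterol demethylase, read 9.95, 10.98 and 14.6 FPKM under the WT label and 11.1, 10.4 and 11.8 FPKM under CD40LΔ5. WT replicate 3 was highest, and its groups by the table did not overlap either (10.4 ± 0.519 against 12.5 ± 1.81 FPKM, SD, n = 3). Hsd17b7, a ketosteroid reductase, also had its highest value in WT replicate 3, at 3.48 FPKM, and overlapped by both groupings.

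Tm7sf2, a sterol reductase that acts directly after Cyp51 (chromosome 19, 6062821 to 6068373, minus strand), went against most of the other enzymes by the table. It read 3.66, 5.60 and 3.07 FPKM under the WT label and 3.10, 4.57 and 3.09 FPKM under CD40LΔ5. The 3 libraries averaged as WT were almost equal and lowest, and WT replicate 2 was highest. By the table the means were 4.61 ± 0.970 against 3.09 ± 0.0118 FPKM (SD, n = 3), with a log2 difference of 0.44 ± 0.14 SE (limma adjusted p = 0.349), and by the labels the difference was -0.14 ± 0.22 SE. The gene held 126 to 204 reads per library. Exons of Vps51 on the same strand cover 12.1% of its exonic bases, and Vps51 measured 10.9 to 13.3 FPKM with a log2 difference of 0.07 ± 0.09 SE by the table.

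The 2 most abundant enzymes after lanosterol were Ebp and Dhcr7. Ebp, the sterol isomerase, measured 19.3, 19.7 and 20.004 FPKM under the WT label and 16.2, 16.4 and 19.4 FPKM under CD40LΔ5. CD40LΔ5 replicates 1 and 2 were low and CD40LΔ5 replicate 3 reached the WT range (log2 difference by the labels -0.18 ± 0.09 SE, limma unadjusted p = 0.0926). Dhcr7, which makes cholesterol in the final reduction, measured 13.4, 11.3 and 12.9 FPKM under the WT label and 11.8, 11.7 and 12.7 FPKM under CD40LΔ5. It overlapped by both groupings, as did Msmo1, the methyl sterol oxidase, at 7.47 to 8.92 FPKM.

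Among the regulators, Srebf2, the SREBP gene that mainly drives sterol synthesis (chromosome 15, 82147266 to 82205376, plus strand), read 86.9, 75.5 and 92.2 FPKM under the WT label and 87.9, 93.2 and 83.7 FPKM under CD40LΔ5. Only WT replicate 2 stood apart, below the others, and both groupings overlapped. Its log2 difference was 0.06 by the labels (95% interval -0.19 to 0.30) and -0.05 by the table (-0.28 to 0.18). Srebf1, the gene more tied to fatty acid synthesis, measured 26.3, 22.9 and 27.2 FPKM under the WT label and 26.3, 25.4 and 23.7 FPKM under CD40LΔ5. Values per gene do not tell its 2 main isoforms apart. Scap, the escort protein, ranged from 16.4 to 18.9 FPKM.

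The 2 Insig genes did not run in parallel. Insig1, which is itself a target of SREBP, measured 13.0, 16.6 and 17.03 FPKM under the WT label and 13.4, 12.5 and 16.3 FPKM under CD40LΔ5. WT replicates 2 and 3 and CD40LΔ5 replicate 3 were high and the other 3 low, a split that neither source gives. The 3 high libraries were also the 3 with the highest summed plasma cell markers (4477 to 4677 FPKM against 798 to 1987 FPKM), whose part in the Insig1 values was not tested. Insig2 measured 9.83, 9.97 and 8.25 FPKM under the WT label and 9.61, 10.1 and 8.73 FPKM under CD40LΔ5. It was lowest in the replicates numbered 3 of both labels, and all 3 libraries averaged as MUT lay above the rest (log2 difference 0.16 ± 0.08 SE, limma unadjusted p = 0.0906).

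Of the sterol transport genes, Abca1, the exporter that loads cholesterol onto apolipoproteins (chromosome 4, 53030787 to 53159895, minus strand), was the one member at an unadjusted p under 0.05 by the labels. It read 12.0, 8.52 and 9.04 FPKM under the WT label and 12.8, 13.3 and 11.8 FPKM under CD40LΔ5. WT replicates 2 and 3 were low, while WT replicate 1 exceeded CD40LΔ5 replicate 3. The means were 12.6 ± 0.727 for CD40LΔ5 and 9.86 ± 1.88 FPKM for WT (SD, n = 3), with a log2 difference of 0.34 ± 0.13 SE (limma unadjusted p = 0.0377, adjusted p = 0.999993). By the table the means were equal within error, at 11.3 ± 2.46 against 11.2 ± 1.95 FPKM.

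Abcg1, the exporter to lipoprotein particles, measured 24.5, 13.99 and 22.0 FPKM under the WT label and 22.1, 15.9 and 19.3 FPKM under CD40LΔ5. It was highest in WT replicate 1 and low in the replicates numbered 2, and did not share the order of Abca1. Macrophages express both exporters, and WT replicate 1 also had the highest summed level of the 10 macrophage markers found (of 11 listed), 366 FPKM against 128 to 216 FPKM elsewhere. None of these 10 markers was at 0 in every library. WT replicate 1 also had the highest Nr1h3, an LXR receptor gene, at 5.35 FPKM against 1.22 to 2.28 FPKM in the other 5 libraries. The part of macrophage RNA in the values of Abcg1 and Abca1 was not tested, and in bulk libraries fewer cells of a type and less RNA per cell cannot be told apart. Stard4, a carrier of cholesterol in the cytosol, ranged from 6.34 to 8.01 FPKM and overlapped by both groupings.

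In fatty acid synthesis, Scd1 (chromosome 19, 44394451 to 44407709, minus strand) measured 242, 199 and 211 FPKM under the WT label and 252, 213 and 245 FPKM under CD40LΔ5. WT replicates 2 and 3 and CD40LΔ5 replicate 2 were the lower 3, again a split of neither source. The log2 difference of Scd1 was 0.12 ± 0.12 SE by the labels and -0.11 ± 0.11 SE by the table. Its neighbour Scd2 (44293676 to 44306864, plus strand), a desaturase of the same family, measured 35.7, 23.5 and 30.2 FPKM under the WT label and 27.2, 22.5 and 30.4 FPKM under CD40LΔ5. WT replicate 1 was highest and CD40LΔ5 replicate 2 lowest, a wider spread than that of Scd1 (17.4% against 9.65%, coefficient of variation). Only 4.56% of the 50-base runs of Scd1 transcripts and 3.97% of those of Scd2 occur in another gene, so reads of the 2 genes were mostly separable at that length.

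Acly measured 70.3, 56.8 and 69.2 FPKM under the WT label and 68.7, 61.7 and 69.1 FPKM under CD40LΔ5. The replicates numbered 2 were low and the other 4 nearly equal. Fasn, the fatty acid synthase, read 17.3, 13.9 and 19.4 FPKM under the WT label and 18.4, 16.4 and 17.8 FPKM under CD40LΔ5. WT replicate 2 was lowest and WT replicate 3 highest, and by the table all 3 libraries averaged as MUT lay below the rest (log2 difference -0.21 ± 0.10 SE, limma unadjusted p = 0.0617). Acaca, the acetyl-CoA carboxylase, ranged from 4.76 to 5.88 FPKM, and 30.4% of its 50-base runs occur in other genes, led by the gene model Gm5182. Elovl6, which elongates palmitate, was low, at 0.796, 0.981 and 0.707 FPKM under the WT label and 0.773, 0.819 and 0.923 FPKM under CD40LΔ5. Its groups overlapped both ways (exact two-sided permutation p = 0.9 by the labels and 0.5 by the table, where 3 against 3 cannot go below 0.1), on 116 to 153 reads per library.

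**Figure D3:**
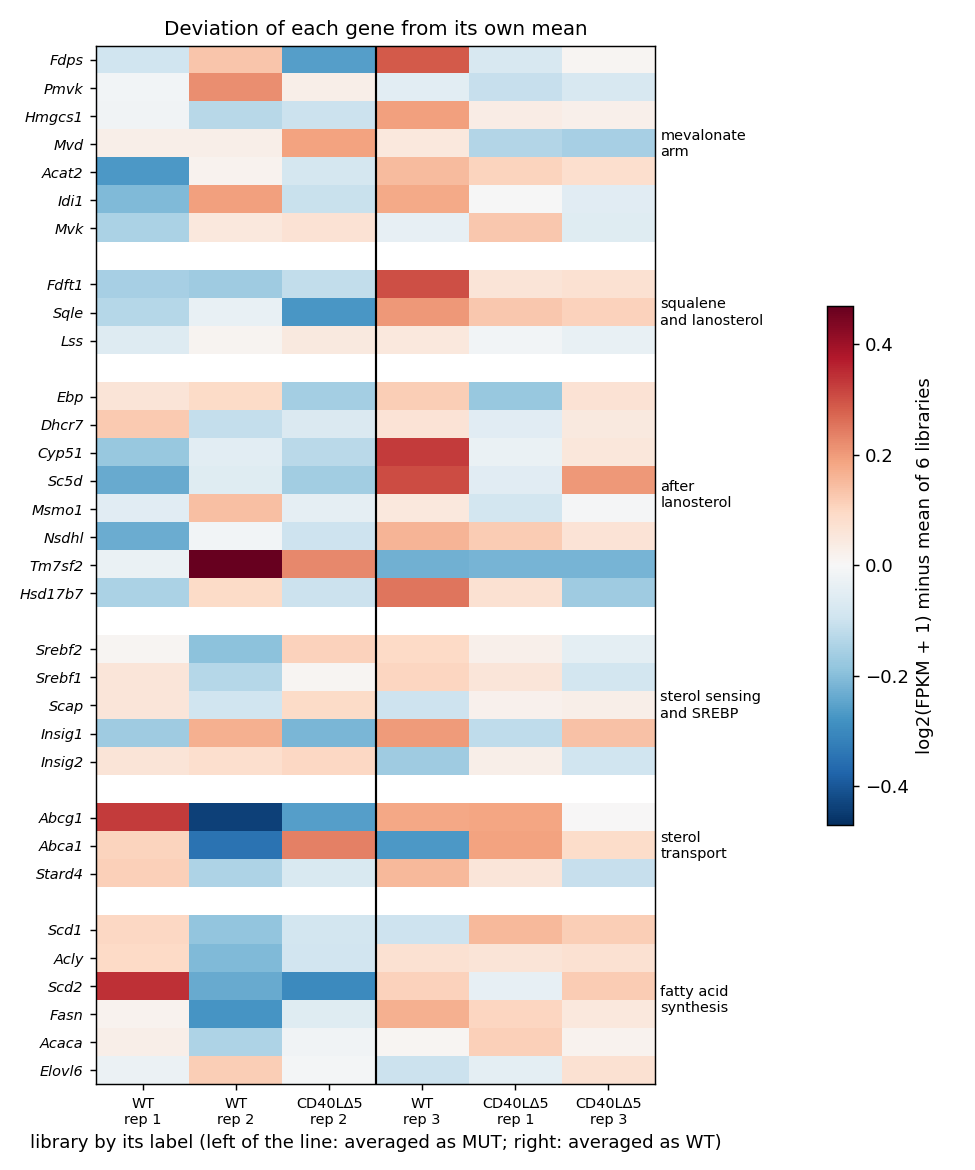
Each gene's log2(FPKM + 1) minus its own mean over the 6 libraries (colour), genes in rows by role and libraries in columns, those averaged as MUT left of the line. WT replicate 3 is red in most sterol synthesis rows, with the highest value in 11 of 18, and WT replicate 2 is blue in the fatty acid rows, with the lowest value in 4 of the 5 tested.

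Sterol and fatty acid synthesis genes thus set different libraries apart. Of the 18 sterol synthesis enzymes, 11 had their highest value in WT replicate 3, where 9.64% of all genes tested had theirs. WT replicate 1 held the lowest value of 7 of the 18, against 8.42% of all genes. The summed level of the 18 was 165, 181 and 195 FPKM under the WT label and 169, 163 and 175 FPKM under CD40LΔ5. WT replicates 1 and 3 were thus near opposite ends within 1 label. Of the 5 tested fatty acid synthesis genes 4 were lowest in WT replicate 2, against 22.1% of all genes. Their sum was 371, 298 and 336 FPKM under the WT label and 372, 319 and 368 FPKM under CD40LΔ5, of which Scd1 made up the larger part. WT replicate 2 was also lowest for 3 of the 18 sterol enzymes and for 12 of the 31 tested members in all. Those included Srebf1, Srebf2, Stard4, Abca1 and Abcg1, so the low value was not particular to the fatty acid genes. These patterns were noticed in the values and are a description of 6 libraries.

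Immunoglobulin and histone genes took 2.28% (CD40LΔ5 replicate 2) to 8.68% (WT replicate 3) of the reads, which lowers the FPKM of all other genes in libraries rich in them. With FPKM rescaled without those genes, 13 of the 18 sterol enzymes were highest in WT replicate 3 (18.03% of all genes) and 4 of 5 fatty acid genes were lowest in WT replicate 2 (19.99%). With TMM scaling, which aligns the bulk of genes between libraries, the counts were also 13 of 18 (18.4%) and 4 of 5 (22.2%).

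The summed sterol enzymes ordered the libraries as the summed plasma cell markers did. The 8 plasma cell markers summed to 4677 FPKM in WT replicate 3, 4594 in WT replicate 2, 4477 in CD40LΔ5 replicate 3, 1987 in CD40LΔ5 replicate 1, 985 in WT replicate 1 and 798 in CD40LΔ5 replicate 2. This is the order of the sterol sums, over a far wider range, and none of the 8 was at 0 in every library. Igj, the joining chain of secreted antibody, gave most of it, at 653 to 3627 FPKM. With TMM scaling the sterol sums of CD40LΔ5 replicate 3 (183 FPKM) and WT replicate 2 (181 FPKM) changed places. Single enzymes did not all share the order of the sum. WT replicate 2, high in both sums, was lowest for Hmgcs1, Fdft1 and Dhcr7 and highest for 4 of the 18 enzymes. The plasma cell list was among several marker lists, and its match with the sterol sums was noticed in the values. The 8 proliferation markers summed to 189, 182 and 146 FPKM in WT replicate 3 and CD40LΔ5 replicates 1 and 3, the set averaged as WT, to 144 FPKM in WT replicate 2, and to 88.8 and 81.2 FPKM in WT replicate 1 and CD40LΔ5 replicate 2. Proliferation markers thus put CD40LΔ5 replicate 1 above WT replicate 2 and CD40LΔ5 replicate 3, where the sterol sum put it below both. The part of plasma cells and of cycling cells in the sterol enzyme values was not tested.

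**Figure D4:**
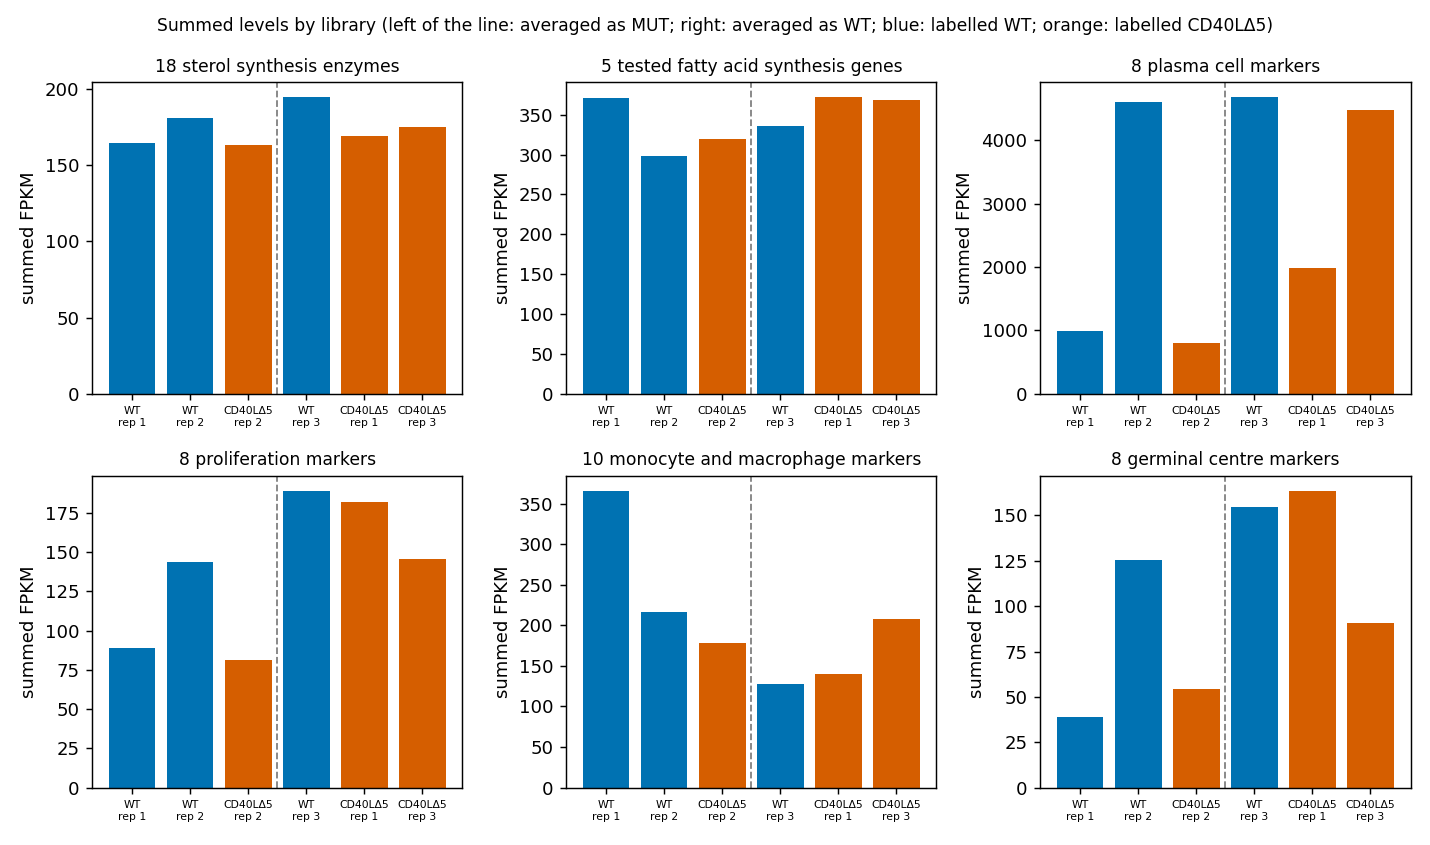
Summed FPKM per library (bars from 0) of the 18 sterol synthesis enzymes, the 5 tested fatty acid synthesis genes and 4 marker lists, blue for libraries labelled WT and orange for CD40LΔ5, those averaged as MUT left of the dashed line. The sterol sums run from 163 to 195 FPKM in the order of the plasma cell sums (798 to 4677 FPKM), while the fatty acid sum is lowest in WT replicate 2 (298 FPKM).

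Other genes of the same pathways, from lists of related genes, gave 0 calls in limma by either grouping. Of 33 other sterol genes, 31 were found and 23 tested. By the labels 15 of the 23 were lower, with a median log2 difference of -0.03 and none at an unadjusted p under 0.05 in limma. In the grouping of the table, 17 of the 23 had higher values in the MUT set (median 0.10), as did 6979 of all 11252 genes, and 2 had an unadjusted limma p under 0.05, against 13.0% of all genes. As a share, the second count lay below that of all genes. The 2 were Cyp27a1, which hydroxylates the cholesterol side chain, and Ggps1, which draws farnesyl diphosphate away to geranylgeranyl diphosphate.

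Cyp27a1 measured 7.04, 7.08 and 4.27 FPKM under the WT label and 5.72, 7.73 and 3.95 FPKM under CD40LΔ5. All 3 libraries averaged as MUT were above the rest (log2 difference 0.56 ± 0.13 SE, limma adjusted p = 0.343). The monocyte and macrophage markers were higher in the same 3 libraries on average (10 of 10, median log2 difference 0.69), as was Nr1h3 (0.61 ± 0.28 SE), and their part in the Cyp27a1 values was not tested. Ggps1 measured 13.3, 13.97 and 11.4 FPKM under the WT label and 11.9, 13.5 and 11.3 FPKM under CD40LΔ5. The same 3 libraries were higher (log2 difference 0.22 ± 0.07 SE, limma adjusted p = 0.350).

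Of 30 other fatty acid and lipid synthesis genes, 28 were found and 22 tested. Of these, 14 were lower by the labels (median log2 difference -0.03) and 12 by the table (median -0.01), with none at an unadjusted p under 0.05 in limma. Dgat1, which makes triglyceride, had the smallest p by the table and measured 12.1 ± 1.31 FPKM in the libraries averaged as MUT against 9.74 ± 1.44 FPKM (SD, n = 3). Of 17 fatty acid oxidation genes 15 were tested, with medians of -0.00 by the labels and 0.03 by the table, again with none at an unadjusted p under 0.05. Cpt1a, the carnitine transferase that admits fatty acids to mitochondria, measured 20.5, 29.4 and 23.0 FPKM under the WT label and 35.2, 41.9 and 22.1 FPKM under CD40LΔ5. CD40LΔ5 replicates 1 and 2 were high and CD40LΔ5 replicate 3 lay within the WT range (log2 difference by the labels 0.40 ± 0.24 SE). Of the 9 LXR targets, 6 were lower by each grouping, and Abca1 by the labels was the only one at an unadjusted p under 0.05.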

How the data were processed

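The authors deposited FPKM values per gene for 6 libraries and a table of mean FPKM with the columns MUT and WT. Per the labels' protocols libraries were made with the TruSeq RNA kit, whose reads carry no strand. Per the submitters' processing notes the build was mm9 and the tools included STAR, DESeq2 and CASAVA 1.8.2, with no role stated. Which tool counted reads is not given in the sources used here. Coordinates in the files are those of GRCm38: 19 of the 32 members have exactly the start and end of GENCODE M21.

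Dividing FPKM times gene length by its smallest value above 0 in a library recovered whole reads for 100% of values (tolerance 0.01 reads), 24320080 to 27866611 per library. The 11252 genes whose mean reached 1 FPKM were tested with limma 3.58.1 in R 4.3.3 (eBayes with a trend, two-sided) on log2(FPKM + 1), with Benjamini-Hochberg adjustment over all 11252 genes and a threshold of 0.05. The procedure was tested on simulated data, whose settings and results are not given here. Groups were 3 libraries each, by the labels and, second, by the table of means. The members, lists, marker lists and the rule for named genes (members at an unadjusted p under 0.05, under 1 FPKM, the SREBP, Insig and Scd genes, the 2 most abundant per role, and up to 4 genes per related list) were chosen with earlier results of these data known. Read sharing used 50-base runs of GENCODE M21 transcripts and exon overlap. Alternatives were other pseudocounts, filters, scalings, variance settings, voom, a replicate block and leaving out each library. The counts of members that do not overlap or have a small p without each library were added after seeing the data.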

Additional observations from a re-analysis of the deposited data

How the results depend on the processing

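With each alternative run, 0 of the tested members passed by the labels (17 alternatives) and 0 by the table of means (16 alternatives), with adjusted p from 0.229 upward. The 7 members at an unadjusted p under 0.05 kept their direction in every alternative that tested them. They were picked by that p from these same data, so this is no check. For the 6 of the table the groups did not overlap, and only a change of scaling could have reversed them. The members' median log2 difference by the table of -0.09 became -0.14 with quantile normalization and -0.14 with TMM scaling, where the median of all genes moved from 0.05 to -0.00. Leaving out 1 library gave -0.11 to -0.045, the latter without WT replicate 3. By the labels the median of -0.02 ranged from -0.05 (without WT replicate 2) to 0.03 (without WT replicate 3), the one alternative in which it was above 0. The number of all genes called by the table, 3, ranged from 0 with a mean of at least 5 FPKM to 16 without CD40LΔ5 replicate 1. It was 1 without a filter, with quantile normalization, with voom or without CD40LΔ5 replicate 2, 5 with a pseudocount of 0.1 FPKM, 6 with robust eBayes and 13 without WT replicate 2. With the replicate number of the labels as a replicate block, 0 members passed and their median remained -0.02. Whether the numbers pair the libraries is not known. Deviations from the group means correlated across genes at -0.38, 0.06 and 0.38 for numbers 1, 2 and 3. These deviations sum to 0 within each group, which ties the correlations to one another, so they cannot decide on pairing. No block was fitted for the sets of the table, where 1 number alone has a library in both sets. Counting error limits Tm7sf2, Elovl6 and Mvk most, at 6.13% to 8.78% per library.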
